A study of Homo sapiens with 9 samples.

Results

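Of the 654 genes in the count table whose current symbol is LINC followed by digits, 164 had at least 10 raw counts in each of the 9 libraries and are described here. The whole table held 23727 genes. The remaining LINC genes were split between 132 that reached 10 counts in 1 to 8 libraries and 358 that reached it in none, of which 53 had no count at all. Just inside the minimum lay LINC02777, LINC01002 and LINC00926, each with a lowest count of 10. Just outside lay LINC02475, LINC01126 and LINC02466, each with a lowest count of 9. The genes were thus chosen by their raw counts, and their levels are a description and carry no test.

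The libraries came from LN229, an established human glioblastoma cell line, in which 1 group was untreated and taken at 0 h and the others received 500 µM sodium formate for 8 h or 24 h. Formate is a carrier of 1-carbon units for nucleotide synthesis. No genetic change was described for any group, and all groups shared the same medium with glucose, glutamine and fetal bovine serum. Each group held 3 libraries, numbered 1 to 3, with 22222298 to 25848242 counts. The untreated cells were all taken at 0 h, so formate and time in culture cannot be told apart at 8 h or at 24 h. The labels do not say whether the numbered libraries came from separate cultures, so p-values measure the spread between these libraries, which may be technical. Because bulk RNA was measured, fewer cells of a type and less RNA per cell cannot be told apart.

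Long intergenic non-coding RNAs are transcribed by RNA polymerase II, usually spliced and polyadenylated, and do not encode an annotated protein. A LINC symbol is a placeholder given to such a gene when it has no functional name, so the class is held together by naming, not by a shared pathway. Here the bodies of 17 members overlap a protein-coding gene. Members of the class have been described as scaffolds for chromatin proteins, as binders of microRNAs and as regulators of nearby genes, and many are cell-type restricted and scarce. Library preparation used a kit for polyadenylated mRNA that keeps strand, so transcripts without a poly(A) tail are poorly represented.

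Promoters of some members are shown, to set the letters around their start sites side by side. RefSeq (GRCh38.p14) gave a promoter of 300 bases, from 250 before the transcription start to 50 after it, for 107 of the 164 members; LINC00707, LINC01711 and LINC02732 had no entry. The most abundant member with an entry and, of the members that passed the test at 24 h against 0 h with the replicate number as a block, the 3 with the smallest p in each direction are shown. They were taken from members with a RefSeq start within 1 kb of the GENCODE start, and members on some chromosomes were left out. Capitals mark exact matches on either strand. The letters searched were TATAAA for the TATA box, CCAAT for the box of that name, CACGTG for an E-box, TGACTCA for AP-1, TGACGTCA for the cyclic AMP response element, GGAATG for TEAD factors and TTTGAA for the cell-cycle homology region, and the sterol regulatory element was searched too. None of these motifs contains another, and no match in these windows means only that these letters are absent. The members shown for each direction, LINC01278 and LINC03015 among them, were all chosen after their values were seen. None of the members shown passed without the block at 24 h against 0 h. The first sequence is the promoter of LINC00511 (chr17:72640423-72640722, minus strand), followed by those of LINC01278 (chrX:63561046-63561345, minus), LINC01687 (chr21:22098410-22098709, minus) and LINC00839 (chr10:42475241-42475540, plus), which were higher at 24 h. The last 3 are LINC01852 (chr15:38072941-38073240, minus), LINC02846 (chr9:136109387-136109686, minus) and LINC03015 (chr7:149389-149688, minus), which were lower.
LINC00511: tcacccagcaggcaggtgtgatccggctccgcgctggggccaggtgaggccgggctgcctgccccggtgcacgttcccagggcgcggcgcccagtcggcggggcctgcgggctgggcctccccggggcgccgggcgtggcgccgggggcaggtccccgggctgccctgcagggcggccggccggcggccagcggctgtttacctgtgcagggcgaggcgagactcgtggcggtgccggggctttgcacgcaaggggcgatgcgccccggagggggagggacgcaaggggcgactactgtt
LINC01278: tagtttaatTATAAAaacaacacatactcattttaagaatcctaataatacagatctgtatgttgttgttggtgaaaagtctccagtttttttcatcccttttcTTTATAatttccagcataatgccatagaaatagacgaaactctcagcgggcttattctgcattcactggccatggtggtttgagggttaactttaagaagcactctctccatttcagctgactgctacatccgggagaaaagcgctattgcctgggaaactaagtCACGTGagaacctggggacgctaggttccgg
LINC01687: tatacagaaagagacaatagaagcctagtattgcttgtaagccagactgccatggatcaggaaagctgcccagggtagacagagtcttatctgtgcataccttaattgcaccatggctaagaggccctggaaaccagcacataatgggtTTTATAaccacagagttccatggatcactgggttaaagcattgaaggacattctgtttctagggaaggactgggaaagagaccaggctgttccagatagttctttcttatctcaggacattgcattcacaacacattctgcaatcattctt
LINC00839: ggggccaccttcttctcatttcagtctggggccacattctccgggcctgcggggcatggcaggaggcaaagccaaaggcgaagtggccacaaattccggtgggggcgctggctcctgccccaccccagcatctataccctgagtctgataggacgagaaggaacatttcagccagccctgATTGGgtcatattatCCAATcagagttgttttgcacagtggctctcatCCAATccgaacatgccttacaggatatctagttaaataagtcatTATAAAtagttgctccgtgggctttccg
LINC01852: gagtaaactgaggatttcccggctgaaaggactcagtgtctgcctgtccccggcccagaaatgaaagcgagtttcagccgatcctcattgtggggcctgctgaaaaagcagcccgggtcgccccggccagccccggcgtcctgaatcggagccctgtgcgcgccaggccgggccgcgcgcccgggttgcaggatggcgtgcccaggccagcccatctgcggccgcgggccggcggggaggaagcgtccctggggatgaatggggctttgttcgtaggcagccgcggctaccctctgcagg
LINC02846: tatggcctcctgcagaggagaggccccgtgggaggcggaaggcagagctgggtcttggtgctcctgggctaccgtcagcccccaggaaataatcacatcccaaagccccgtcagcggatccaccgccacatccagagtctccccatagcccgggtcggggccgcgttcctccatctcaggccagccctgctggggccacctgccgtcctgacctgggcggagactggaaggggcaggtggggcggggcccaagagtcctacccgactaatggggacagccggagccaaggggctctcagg
LINC03015: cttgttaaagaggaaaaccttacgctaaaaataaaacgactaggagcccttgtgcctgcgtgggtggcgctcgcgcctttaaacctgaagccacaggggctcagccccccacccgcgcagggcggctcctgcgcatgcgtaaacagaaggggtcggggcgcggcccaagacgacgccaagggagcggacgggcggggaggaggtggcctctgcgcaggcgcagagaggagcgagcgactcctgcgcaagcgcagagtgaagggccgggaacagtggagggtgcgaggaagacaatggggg

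The 3 promoters of members that were higher each held the letters TATAAA on either strand and had a GC content of 40.3%, 43.7% and 52.7%. In LINC01278 the matches began at base 10 on the printed strand and base 105 on the opposite strand. In LINC01687 the match began at base 150 on the opposite strand. In LINC00839 it began at base 273 on the printed strand, after the start, which follows base 250. Whether any of them acts as a TATA box was not tested. The 3 of members that were lower held no match to any of the 8 motifs and had a GC content of 68.0%, 67.3% and 64.7%. LINC00511 held none either, at 78.0% GC. Over all 107 member promoters, 12.1% held TATAAA, against 11.5% of the 35116 promoters in the table, and the median GC content was 58.3% against 58.7%. The split between the shown promoters does not hold for all that had an entry. TATAAA was found in 3 of the 6 promoters of members that were higher with the block, the 3 shown, and in 1 of the 9 of members that were lower. CCAAT was in 2 of the 6 and 3 of the 9, TGACTCA and TTTGAA each in 0 of the 6 and 1 of the 9. CACGTG and GGAATG were each in 1 of the 6 and 0 of the 9. GC content was not compared between the 6 and the 9. CCAAT occurred in 45.8% of member promoters and in 34.6% of all promoters, CACGTG in 6.54% and 7.26%, TGACTCA in 8.41% and 4.95%, TGACGTCA in 3.74% and 1.85%, GGAATG in 6.54% and 14.0%, and TTTGAA in 11.2% and 15.2%. The sterol regulatory element was in 0 of the 107 and in 0.0456% of all promoters. These shares are descriptions of letters and carry no test.

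By GENCODE type, 125 of the 164 members were lincRNA, 15 processed transcripts, 8 antisense and 7 transcribed unprocessed pseudogenes, and the remaining 9 were spread over 7 other types. One of those 9, LINC02693, was typed as protein-coding. The median exon length was 2651 bases, from 483 in LINC01389 to 27605 in LINC00511, against 5261.5 bases in protein-coding genes at the same count minimum. GC content of the longest transcript had a median of 47.54% against 47.85%. The nearest protein-coding start lay a median of 57857.5 bases away, within 1 kb in 14 members and within 10 kb in 27, and 9 members were divergent from a coding gene within 1 kb. The strand setting of the counting is not given in the sources used here. For 25 members at least 5% of the exon bases are shared with a gene on the opposite strand, and reads of the partners could then not be told apart.

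The class was scarce and uneven. Together the 164 RNAs took 0.0910%, 0.0998% and 0.104% of all counts at 0 h, 0.0881%, 0.0984% and 0.102% at 8 h, and 0.102%, 0.106% and 0.111% at 24 h. The lowest library of each group was replicate 1, and the 3 ranges overlapped. As CPM (the counts of a gene divided by the TMM-scaled library size), the members ran from 0.547 to 185.8 with a median of 2.35, against 22.6 for all 15273 genes tested. Only 20 members reached 10 CPM and 27 stayed under 1 CPM. LINC00511 alone held 18.6% of the members' summed CPM, the top 10 held 42.9% and the top 50 held 77.7%.

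LINC00511, a long multi-exon RNA on chromosome 17 (GRCh38 72290091 to 72640472, minus strand) described as promoting growth in several cancers, was the most abundant member. Its level was 175.9, 185.3 and 180.4 CPM at 0 h, 158.7, 189.1 and 177.2 at 8 h, and 237.9, 184.6 and 183.0 at 24 h. Replicate 1 of 24 h stood above all other libraries and the remaining values overlapped. The log2 fold change at 24 h against 0 h was 0.16 ± 0.12 (SE; edgeR quasi-likelihood test, Benjamini-Hochberg adjusted p = 0.40). LINC00205 followed at a mean of 51.5 CPM, LINC00963 at 48.7, LINC00665 at 34.1 and LINC01116 at 20.5. The libraries of LINC00963 ran from 38.9 to 60.6 CPM and those of LINC00205 from 35.6 to 59.3 CPM, and neither was called. By edgeR (Benjamini-Hochberg), the log2 fold change of LINC00963 was 0.20 at 24 h against 0 h (adjusted p = 0.326) and 0.28 against 8 h (0.209). For LINC00205 it was -0.05 (adjusted p = 0.892) and -0.12 (0.737).

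Per kilobase of exon the order changed, because LINC00511 is the longest member. LINC02732 led at a mean of 14.9 CPM per kb over the 9 libraries, followed by LINC01389 at 14.3, LINC01116 at 11.5, LINC00205 at 6.77, LINC00511 at 6.73 and LINC00888 at 6.03. The coding start nearest to LINC01116 is that of MTX2, 368536 bases away, and 12.5% of the exon bases of LINC01116 are shared with a gene on the opposite strand. LINC00888 is typed as a transcribed pseudogene and shares 6.15% of its exon bases with another gene on the same strand, so its level is uncertain. The lowest level per kilobase was that of LINC00649, 0.0601 CPM per kb. The median member stood at 1.09 CPM per kb against 6.68 for protein-coding genes at the same minimum.

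**Figure D1:**
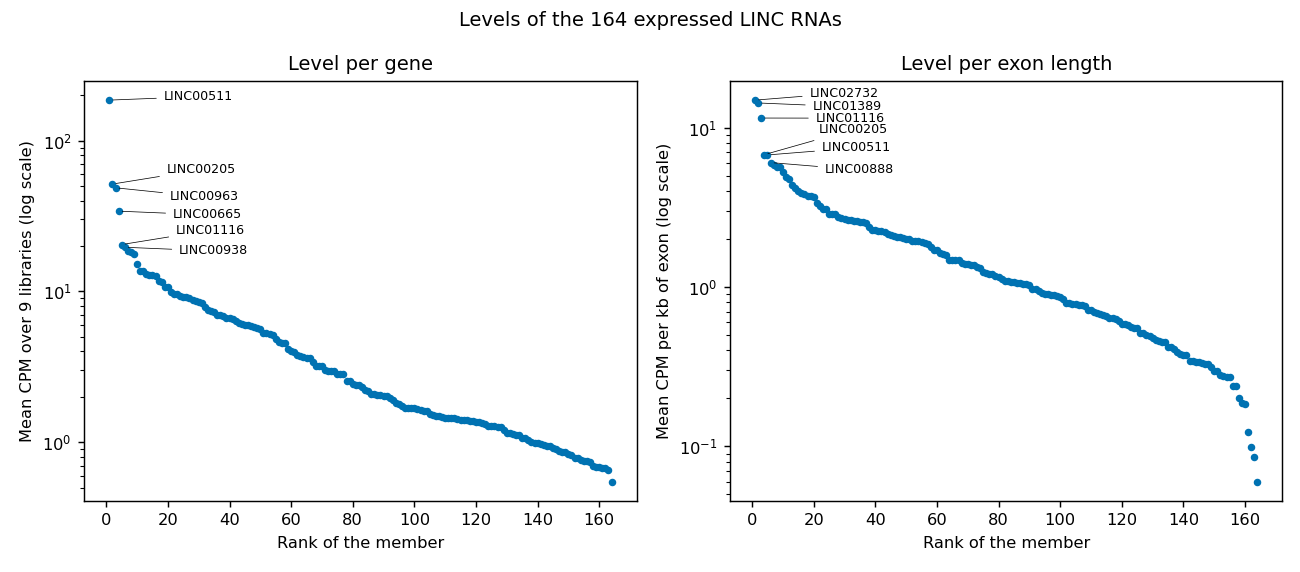
Mean level over 9 libraries of each of the 164 LINC RNAs in rank order, in CPM on a log axis (left) and in CPM per kilobase of exon on a log axis (right); each point is 1 gene. LINC00511 leads per gene at 185.8 CPM and LINC02732 leads per kilobase at 14.9.

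After 8 h of formate no member had moved past the test. Called here means a Benjamini-Hochberg adjusted p under 0.05 over all 15273 genes tested, and edgeR's quasi-likelihood test called 0 of the 164 members and 0.0% of all genes at 8 h against 0 h. No member had an unadjusted p under 0.05, against 79 of all genes (0.517%), and the smallest was 0.0800. DESeq2 and edgeR with the replicate number as a block each called 0 members as well. Log2 fold changes ran from -0.68 in LINC01561 to 0.44, with a median of -0.05 against -0.02 for all genes, and 61 of the members (37.2%, against 43.3% of all genes) were above 0. The groups did not overlap in 8 members, which is 4.88% beside 3.31% of all genes. With a median standard error of 0.25, against 0.15 for all genes, a difference of that size could not be told from 0 in a typical member.

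After 24 h, edgeR without a block called 3 of the 164 members against 0 h, all lower: LINC00707, LINC01711 and LINC02732. With the replicate number as a block it called 23, of which 9 were higher and 14 lower, as described further on. The 3 calls without the block are 1.83% of the members, beside 4.25% of all genes called at 24 h against 0 h. For calls in the lower direction it is 1.83% beside 1.77%. For the higher direction without the block it is 0 members beside 2.47%. All 3 are typed lincRNA and none has exon overlap on the opposite strand. An unadjusted p under 0.05 was seen in 31 members (18.9%, against 26.4% of all genes), and the groups did not overlap in 43 (26.2%, against 30.3%). The median log2 fold change was 0.06 against 0.01 for all genes, with 92 members above 0 (56.1%, against 50.9%) and 74 within 0.25 of it. A change of at least 2-fold was seen in 6 members, 3.66% beside 3.43% of all genes.

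LINC00707, an RNA on chromosome 10 (GRCh38 6779549 to 6879450, plus strand) that has been described as promoting proliferation in lung and other cancers, fell most. It was at 14.4, 8.12 and 10.6 CPM at 0 h, 16.2, 10.6 and 11.5 at 8 h, and 4.48, 2.33 and 1.04 at 24 h. All 24 h libraries lay below all others, while 0 h and 8 h overlapped. The fitted level at 24 h was 4.21-fold lower than at 0 h, a log2 fold change of -2.07 ± 0.39 (SE; edgeR quasi-likelihood test, Benjamini-Hochberg adjusted p = 0.0267), and 16.6% of its exon bases are shared with another gene on the same strand. Without 24 h replicate 1, its highest 24 h library, the log2 fold change was -2.71, and over all settings it ran from -2.71 to -1.69.

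LINC01711, a short gene of 967 exon bases on chromosome 20 (58634772 to 58635738, plus strand), was at 3.63, 4.08 and 3.45 CPM at 0 h. It was at 3.0, 3.28 and 3.79 at 8 h and at 2.28, 1.68 and 1.66 at 24 h. The 24 h libraries did not overlap those of either other group. The log2 fold change against 0 h was -0.99 ± 0.20 (SE; edgeR, Benjamini-Hochberg adjusted p = 0.0280).

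LINC02732, on chromosome 11 (110355130 to 110406400, plus strand) and the highest member per kilobase, was at 20.1, 12.1 and 11.5 CPM at 0 h. It was at 14.6, 11.9 and 12.1 at 8 h and at 8.25, 7.03 and 7.05 at 24 h. The 24 h libraries were below all others, and replicate 1 was the highest of each group. The log2 fold change against 0 h was -0.96 ± 0.21 (SE; edgeR, Benjamini-Hochberg adjusted p = 0.0315).

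These calls, and those over all genes, depended on single libraries. With 24 h replicate 2 or 24 h replicate 3 left out, edgeR without the block called 0 members and 0.0% of all genes. With only the 6 libraries of 0 h and 24 h it called 0 members beside 0.825% of all genes. Leaving out 24 h replicate 1 gave 5 calls (3.05%, beside 5.76% of all genes), and leaving out 8 h replicate 1 also gave 5 (3.05% beside 4.90%). With untreated replicate 2 left out, LINC01711 was no longer called and 2 calls were left (1.22% beside 3.68%). With the block, LINC00707, LINC01711 and LINC02732 were each called in 9 of the 9 fits without 1 library, and their direction held in every setting run.

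**Figure D2:**
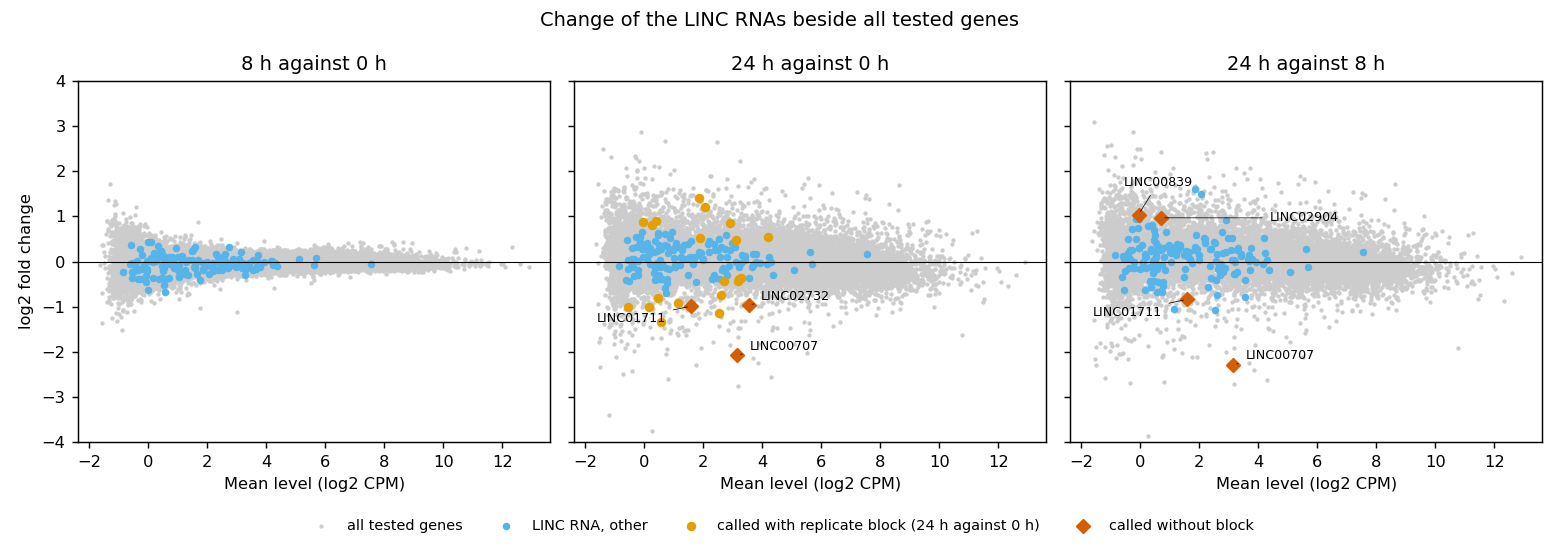
Log2 fold change (vertical) against mean level in log2 CPM (horizontal) for the 164 LINC RNAs and all tested genes (grey), in the 3 comparisons; diamonds passed edgeR's test without a block and orange points, in the 24 h against 0 h panel, passed with the replicate block alone. No diamond is in the 8 h panel, 3 are at 24 h against 0 h and 4 at 24 h against 8 h.

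The labels state no pairing, and the replicate numbers were taken to pair untreated with 24 h libraries because same-numbered libraries deviated together over all genes. Among the members the correlation of these deviations was lower, at 0.3085, 0.0534 and 0.1763 for numbers 1, 2 and 3, against 0.367, 0.164 and 0.251 over all genes. The 23 calls with the number as a block rest on this pairing. They are 14.0% of the members beside 24.1% of all genes called with the block. For the 9 higher members the share was 5.49% beside 12.6%, and for the 14 lower ones it was 8.54% beside 11.6%. LINC00707, LINC01711 and LINC02732 were among the 14. Of the 23, 21 were lincRNA by type, 1 was a processed transcript and 1 was antisense.

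LINC01239, on chromosome 9 (22646200 to 22824213, plus strand), had the highest log2 fold change of all members. It was at 1.08, 3.23 and 2.88 CPM at 0 h, 0.953, 3.11 and 2.26 at 8 h, and 4.61, 7.29 and 7.5 at 24 h. Replicate 1 was the lowest library in each group and 24 h did not overlap the others. The log2 fold change against 0 h was 1.42 ± 0.41 (SE; edgeR adjusted p = 0.0689 without the block and 0.000614 with it). LINC01739, on chromosome 1 (62975751 to 63022504, minus strand), was at 1.41, 4.78 and 2.74 CPM at 0 h and at 5.54, 7.25 and 8.12 at 24 h, with 0.590, 3.67 and 3.15 at 8 h. Here too replicate 1 was lowest in every group, and the log2 fold change at 24 h against 0 h was 1.21 ± 0.49 (SE; edgeR adjusted p = 0.154, and 0.00943 with the block).

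Smaller values at 24 h against 0 h passed with the block in LINC01687 (log2 fold change 0.90 without the block), LINC00839 (0.87), LINC01419 (0.86) and LINC00324 (0.80). With the block and 1 library left out, LINC01419 was called in 9 of 9 fits, LINC01687 in 7, LINC00839 in 4 and LINC00324 in 2. LINC01419 was at 4.48, 6.89 and 6.37 CPM at 0 h and at 8.21, 11.1 and 13.0 at 24 h, and the groups did not overlap. LINC00324, which has been studied in several tumour types, was at 0.472, 1.16 and 1.24 CPM at 0 h and at 1.35, 1.60 and 2.11 at 24 h, close to the lower end of the measured range. In all of the 9 members that were higher with the block, replicate 1 was the lowest of the untreated libraries, and in 8 of them it was the lowest at 8 h. Among the 141 members that did not pass with the block, these counts were 64 and 72. The 9 were picked by a fit that takes out a shared replicate offset, so the counts are not independent of that choice.

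Among the lower members, LINC02584, on chromosome 11 (70072434 to 70075433, minus strand) and typed antisense, was at 11.1, 5.16 and 5.62 CPM at 0 h. At 24 h it was at 4.36, 2.37 and 3.11, below every untreated library, and the log2 fold change was -1.15 ± 0.33 (SE; edgeR adjusted p = 0.0661, and 0.00185 with the block). It shares 7.07% of its exon bases with a gene on the opposite strand. LINC01561, on chromosome 10 (120597949 to 120600124, plus strand), was at 4.48, 1.16 and 1.06 CPM at 0 h and at 0.888, 0.906 and 0.788 at 24 h. Its log2 fold change of -1.35 ± 0.55 (SE; edgeR adjusted p = 0.153, and 0.0444 with the block) was moved by untreated replicate 1, which was far above the other 2, and without that library it was -0.38 (edgeR adjusted p = 0.629). LINC01852 (-1.01), LINC01151 (-1.0), LINC01119 (-0.93), LINC02846 (-0.81) and LINC01505 (-0.75) completed the named lower members by log2 fold change. With the block and 1 library left out, LINC02584 was called in 9 of 9 fits, LINC01505 in 7, and LINC01852 and LINC01119 in 6. LINC01151 and LINC02846 were called in 4 of 9 and LINC01561 in 2. LINC01151 shares 17.2% of its exon bases with a gene on the opposite strand, while LINC01119 and LINC01505 share 7.63% and 6.27% with a gene on the same strand. Replicate 1 was the highest untreated library in 10 of the 14 lower members, and the highest at 8 h in 8. Among the 141 members that did not pass with the block, these counts were 43 and 33. The same limit of the choice by the block applies.

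**Figure D3:**
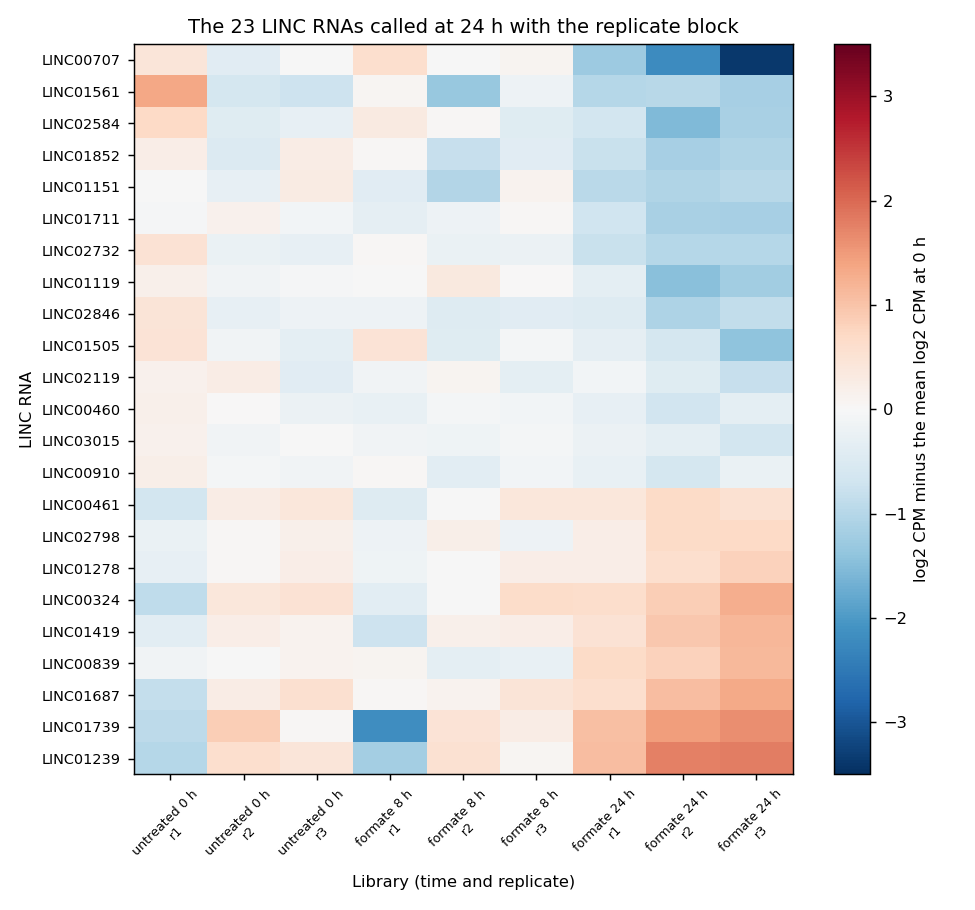
Log2 CPM of the 23 LINC RNAs that passed with the replicate block at 24 h against 0 h, in each of the 9 libraries (columns), minus the mean log2 CPM of that RNA at 0 h. The 3 columns of 24 h are blue in the upper 14 RNAs and red in the lower 9, and replicate 1 at 0 h and 8 h leans the opposite way in many of them.

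Replicate 1 was often the lowest library of its group. Of the 164 members, 44.5% had their lowest untreated level in replicate 1, close to the 41.9% of all genes tested. At 8 h the share was 50.6% against 37.9%, and at 24 h 52.4% against 39.4%. Without replicate 1 in every group, a setting chosen after seeing the data, edgeR called 10 members (6.10%) at 24 h against 0 h, beside 16.9% of all genes. The part of replicate 1 in these differences was not tested further.

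At 24 h against 8 h, 4 members passed: LINC00707 and LINC01711 fell, and LINC00839 and LINC02904 rose. That is 2.44% of the members beside 4.56% of all genes. In each direction 2 members (1.22%) passed, beside 2.84% of all genes higher and 1.72% lower. The groups did not overlap in 44 members (26.8%, against 34.3%), the median log2 fold change was 0.12 against 0.02 for all genes, and 104 members were above 0 (63.4%, against 52.1%). Antisense genes at the same count minimum had a median of 0.13, with 222 of 347 above 0. LINC genes tested below the minimum had 0.28 and 56 of 81, and small RNA host genes -0.05 and 20 of 45. The comparison of 24 h with 8 h shares the 24 h libraries with that of 24 h with 0 h, so the pair are not independent.

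LINC00707 had a log2 fold change of -2.28 ± 0.39 (SE; edgeR, Benjamini-Hochberg adjusted p = 0.0203) at 24 h against 8 h, and LINC01711 one of -0.84 ± 0.20 (adjusted p = 0.0408). LINC00839, on chromosome 10 (42475543 to 42495336, plus strand) and studied in neuroblastoma and other tumours, was at 0.817, 0.612 and 0.638 CPM at 8 h and at 1.23, 1.34 and 1.70 at 24 h. All of its 24 h libraries were above all of its 8 h and 0 h libraries, the latter at 0.707, 0.770 and 0.841. The log2 fold change was 1.04 ± 0.25 (SE; edgeR, Benjamini-Hochberg adjusted p = 0.0437). LINC02904 was at 1.04, 1.27 and 1.15 CPM at 8 h and at 1.86, 2.03 and 2.90 at 24 h, and the groups did not overlap. Its log2 fold change was 0.97 ± 0.24 (SE; edgeR, Benjamini-Hochberg adjusted p = 0.0439). At 0 h LINC02904 stood at 1.37, 1.62 and 1.46 CPM, above every 8 h library and below every 24 h library, and its value at 24 h against 0 h was 0.61 (edgeR adjusted p = 0.134). LINC02732 was at -0.79 at 24 h against 8 h (edgeR adjusted p = 0.0535).

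The count of 4 depended on single libraries, and the share over all genes moved with it. Leaving out 8 h replicate 1, 24 h replicate 2 or 24 h replicate 3 gave 0 members and 0.0% of all genes, and leaving out 8 h replicate 3 gave 0 members beside 0.340%. Dropping 8 h replicate 2 gave 1 member (0.610%, beside 2.38% of all genes), dropping untreated replicate 2 gave 1 (beside 3.60%) and dropping untreated replicate 3 gave 2 (1.22% beside 3.32%). The count was 8 when 24 h replicate 1 was dropped (4.88% beside 6.72%) and 14 when untreated replicate 1 was (8.54% beside 16.3%).

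**Figure D4:**
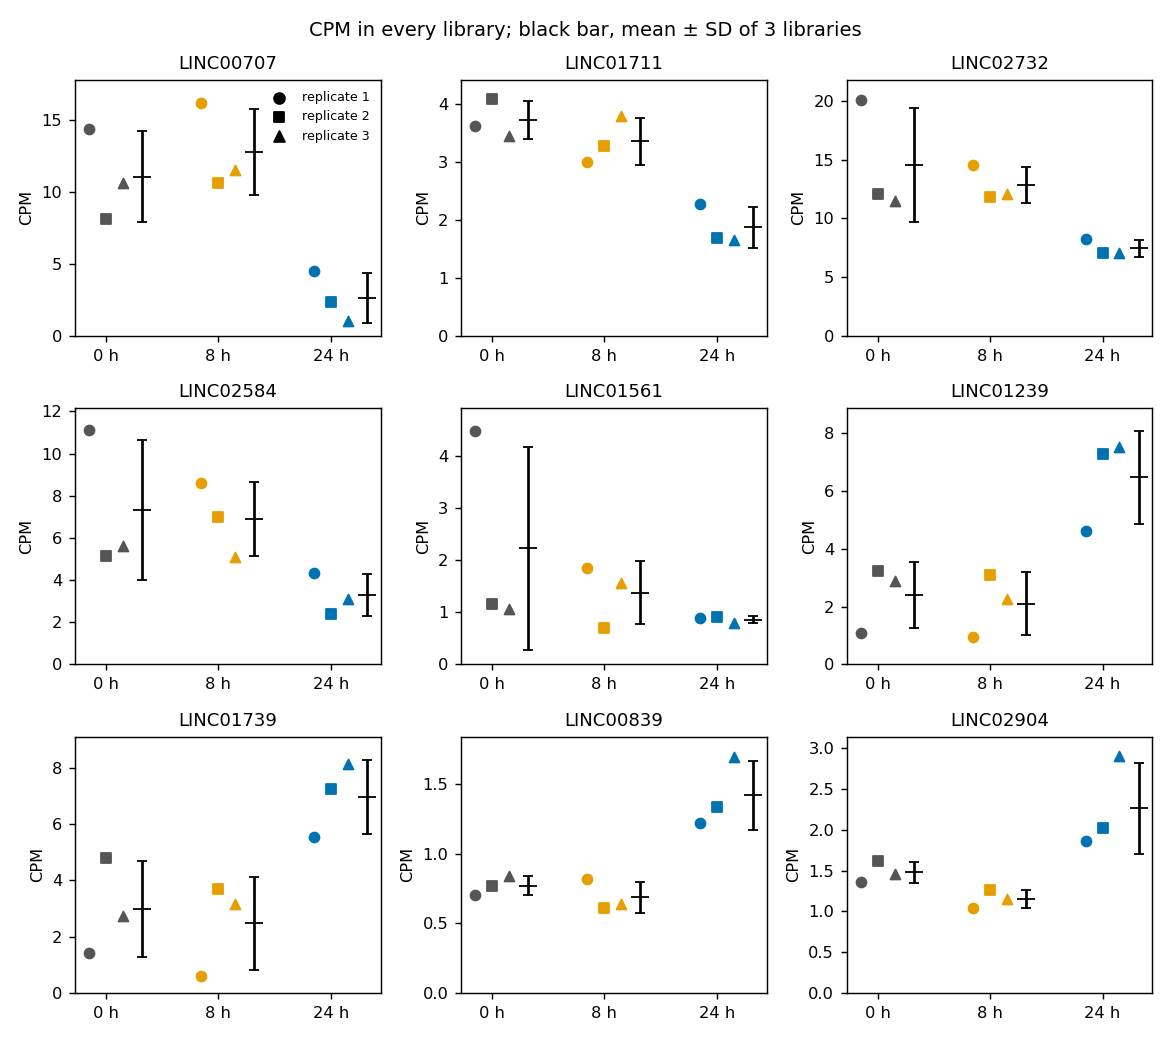
CPM (vertical) in every library of 9 named LINC RNAs at 0 h, 8 h and 24 h; symbols give the replicate number and black bars the mean ± SD of 3 libraries. LINC00707 drops from between 8.12 and 16.2 CPM to between 1.04 and 4.48, and replicate 1 lies apart at 0 h in LINC02732, LINC02584 and LINC01561.

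Other classes of non-coding RNA in the same table gave shares on either side of the members. At 24 h against 0 h, antisense genes with symbols ending in AS and a digit, at the same count minimum, had 2 calls among 347 (0.576%) and 13.0% with the block. These were FAM131B-AS2 at a log2 fold change of -0.65 and KRT10-AS1 at -0.67. Small RNA host genes had 3 calls among 45 (6.67%) and 22.2% with the block, namely MIR31HG at -0.81, MIR1915HG at -1.16 and MIR22HG at -0.99. Protein-coding genes had 590 calls among 12015 (4.91%) and 27.1% with the block. LINC genes tested below the count minimum had 3 calls among 81 (3.70%): LINC01447 at 1.86, LINC00702 at -1.92 and LINC02915 at -1.83. These genes outside the class were picked after their values were seen. The share of calls was not tested between classes, which differ in level: the median standard error was 0.25 in the members and 0.14 in protein-coding genes.

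The members' share was read by level, since scarce genes have wider errors. Between 1 and 2 CPM, 10.9% of 46 members passed with the block, against 17.8% of protein-coding genes in that band. From 2 to 5 CPM the share was 13.5% of 37 members against 28.5%, and from 5 to 10 CPM 26.5% of 34 against 28.9%. At 10 CPM and above it was 10.0% of 20 members against 27.8%, and under 1 CPM 7.41% of 27 against 4.21%. Median standard errors, members first, were 0.32 and 0.32 under 1 CPM, 0.28 and 0.28 from 1 to 2 CPM and 0.22 and 0.23 from 2 to 5 CPM. They were wider in the members above that, at 0.19 and 0.17 from 5 to 10 CPM and 0.15 and 0.12 at 10 CPM and above.

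LINC RNAs were set beside the nearest protein-coding gene by start site, since regulation of neighbours has been described for some of them. A neighbour passed the low-count filter for 124 members, and both had the same sign at 24 h against 0 h in 69 pairs (55.6%). The correlation of the log2 fold changes across the 124 pairs, which share libraries and hold 118 distinct neighbours, was 0.292 (Pearson) and 0.284 (Spearman). Pearson's r was 0.351 within 10 kb (22 pairs), 0.214 within 100 kb (76 pairs, 51.3% of the same sign) and 0.335 beyond 100 kb (48 pairs). Of the 118 neighbours 7 were called (5.93%, beside 4.25% of all genes), 0 of them within 10 kb, 2 within 100 kb and 5 beyond 100 kb. The values describe these pairs, and genes are not independent replicates.

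The coding neighbours of LINC01711 and LINC02732 had values near 0. STX16, a vesicle fusion protein gene whose start lies 16481 bases from that of LINC01711, was at a log2 fold change of 0.06 (edgeR adjusted p = 0.821). RDX, which encodes the membrane-cytoskeleton linker radixin and starts 58408 bases from LINC02732, was at -0.06 (edgeR adjusted p = 0.748). PRKCQ, the nearest coding gene to LINC00707, did not pass the low-count filter. ANO1, a calcium-activated chloride channel gene 2869 bases from LINC02584, was at -0.15 (edgeR adjusted p = 0.298). PLPP4, a lipid phosphatase gene 140995 bases from LINC01561, was at -0.92 (edgeR adjusted p = 0.0519, and 0.000206 with the block). AURKB, the mitotic kinase gene 13443 bases from LINC00324, was at -0.46 beside 0.80 for that RNA (edgeR adjusted p = 0.179, and 0.0147 with the block for AURKB). LINC00461, a brain-enriched RNA that is host to a miR-9 precursor, was at 0.47 without the block (edgeR adjusted p = 0.269) and passed with it at 0.51. Its nearest coding gene MEF2C, a neuronal and muscle transcription factor gene that starts 213216 bases away, rose by 0.58 (edgeR adjusted p = 0.0314). LINC02454 passed neither without the block (-0.71, edgeR adjusted p = 0.154) nor with it (0.0869). Its nearest coding gene HMGA2, a chromatin architectural protein gene that starts 221262 bases away, fell by 1.09 (edgeR adjusted p = 0.0199). LINC02798 was at 0.53 and passed with the block (edgeR adjusted p = 0.0325). It went the opposite way to its nearest coding gene FAM72B, which starts 211215 bases away and fell by 0.56 (edgeR adjusted p = 0.0402). The last pairs, with MEF2C, HMGA2 and FAM72B, were chosen after their values were seen.

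**Figure D5:**
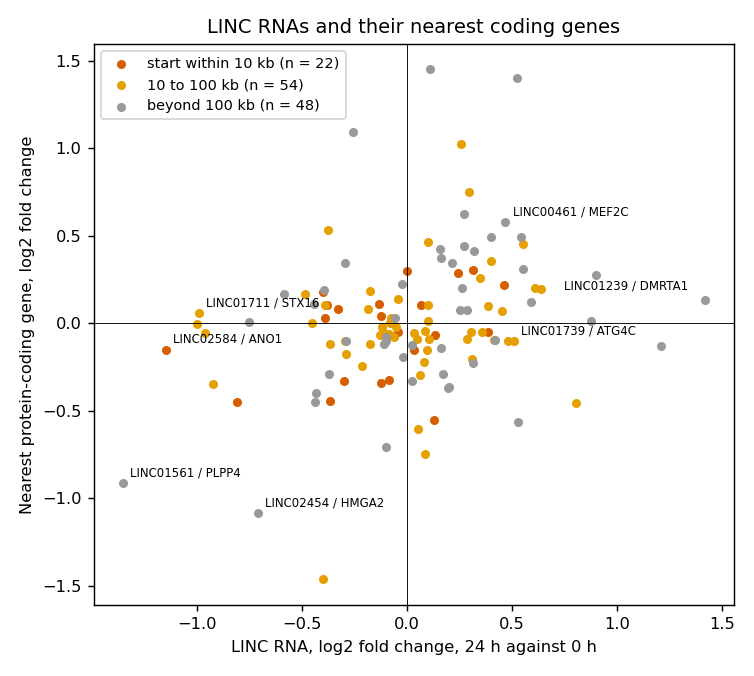
Log2 fold change at 24 h against 0 h of each LINC RNA (horizontal) and of its nearest protein-coding gene (vertical) for 124 pairs, coloured by the distance between the start sites. Pairs lie in all 4 quadrants, with 69 on the same side of 0.

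The cell line's defining genes were checked once. VIM, NES, CD44, EGFR and SOX2 were present in all libraries, GFAP had 3 to 10 counts, and PTPRC, CD68, PECAM1, EPCAM and KRT5 had at most 3 counts. The neuronal genes SYT1 (at least 668 counts) and SNAP25 (at least 157) were present too. SYT1 averaged 36.6, 38.02 and 33.8 CPM at 0 h, 8 h and 24 h, SNAP25 11.0, 11.4 and 24.6 CPM, the glial gene S100B 129.0, 121.7 and 351.6 CPM, and the endothelial gene VWF 0.412, 0.449 and 1.32 CPM. A list of 21 G2 and M phase genes, picked with earlier results of these data known, moved with the 24 h group. Its summed level was 7928 to 8409 CPM at 0 h, 7651 to 9032 at 8 h and 4658 to 6809 at 24 h, with 20 of 21 lower and 10 called at 24 h against 0 h by edgeR (Benjamini-Hochberg). The part of these genes in the members' values was not tested.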

How the data were processed

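Raw counts, deposited by the authors as whole numbers, covered 23727 Ensembl genes in 9 libraries of polyadenylated RNA. Per the submitters' processing notes, bcl2fastq 2.20.0.422, STAR 2.7.4a and GRCh38 were used, and the counting program, annotation release and strand setting are not given in the sources used here. Libraries held 22222298 to 25848242 counts, and 3 counts correspond to 0.116 to 0.135 CPM, which covers counting error only.

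A lookup of Ensembl identifiers gave symbols for 19733 genes, and coordinates, gene types and lengths from GENCODE release 29 on GRCh38. Low counts were removed with edgeR's filterByExpr (15273 genes left, all 164 members among them). TMM factors ran from 0.920 to 1.06. The main test was edgeR 4.0.16 in R 4.3.3 (glmQLFit, glmQLFTest, two-sided, all 9 libraries, 1 mean per group), with Benjamini-Hochberg adjustment over all genes tested and a threshold of 0.05, and it was tested on simulated data. DESeq2 1.42.0 was an alternative. CPM values carry the TMM factors. Log2 fold changes are given with the SE of the fit.

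Same-numbered libraries deviated together at 0 h and 24 h (r = 0.367, 0.164 and 0.251 over genes for numbers 1, 2 and 3) and at 0 h and 8 h (0.476, 0.432 and 0.414), so the titles' numbers were taken to pair them. Between 8 h and 24 h r was 0.423, 0.0367 and 0.404, which did not meet that criterion.

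Named members were those called in any comparison, up to 12 more that passed with the block at 24 h against 0 h by size, the 6 highest per kilobase, the 4 largest rises and 4 largest falls, and the 3 genes on each side of the count minimum. The members and lists were chosen with earlier results of these data known.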

Additional observations from a re-analysis of the deposited data

Results flagged for a closer look

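The change at 24 h against 0 h and the change at 8 h against 0 h share the untreated libraries, and their difference is the comparison of 24 h with 8 h. By that direct test (edgeR quasi-likelihood, Benjamini-Hochberg adjusted over all genes), the later effect was lower than the earlier one in LINC00707, by a log2 difference of -2.28, and in LINC01711, by -0.84. It was higher than the earlier one in LINC00839, by 1.04, and in LINC02904, by 0.97. For LINC02904 the value was -0.36 at 8 h and 0.61 at 24 h, each against 0 h. The other 160 members did not pass this test.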

How the results depend on the processing

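At 24 h against 0 h, where 3 members were called, the count was 23 with the replicate block (24.1% of all genes) and 7 with DESeq2 (10.5%). The count was 5 with no low-count filter (3.77%) and 0 with only the 6 libraries compared (0.825%). Over every LINC gene that passed the filter it was 6 (4.25% of all genes in the main fit). Without replicate 1 in every group it was 10 (16.9%, an alternative chosen after seeing the data). Leaving out each library in turn gave 0 to 5 calls (0.0% to 5.76% of all genes). With the replicate block as well, it gave 13, 12 and 19 without untreated replicate 1, 2 and 3. Without those of 8 h it gave 23, 16 and 16, and without those of 24 h 14, 15 and 12. In these fits with the block, 14.2% to 24.5% of all genes were called. The members' share was lower in each of these fits, from 7.32% to 14.0%. At 24 h against 8 h, where 4 were called, the count was 25 with the replicate block (20.5% of all genes). There the pairing criterion was missed by number 2 alone (r = 0.423, 0.0367 and 0.404). The count was 9 with DESeq2 (9.55%) and 9 with only the 6 libraries compared (11.9%). Over every LINC gene that passed the filter it was 8 (4.56% of all genes in the main fit), and without replicate 1 in every group 17 (19.9%). Leaving out each library in turn gave 0 to 14 (0.0% to 16.3%). With the block as well, it gave 29, 19 and 25 without untreated replicate 1, 2 and 3 (34.8%, 16.1% and 21.7% of all genes). Without those of 8 h it gave 13, 13 and 7 (13.3%, 10.4% and 7.57%), and without those of 24 h 14, 15 and 11 (14.2%, 14.2% and 11.9%). At 8 h against 0 h all of these settings gave 0. At 24 h against 0 h and against 8 h, size factors of DESeq2 in edgeR gave 3 and 4 (4.22% and 4.30% of all genes). A minimum of 20 counts gave 3 and 3 (4.25% and 4.56% of all genes in the main fit). Of the named members, the 17 called in a comparison or with the block were run under the alternatives, and 0 changed sign at 24 h against 0 h. LINC00707 was called in 7 of 9 fits without 1 library (adjusted p from 0.0193 to 0.124), LINC01711 in 6 (0.0241 to 0.143) and LINC02732 in 7 (0.0311 to 0.148), and each in 9 of 9 of those with the block. With the block, the rest of the 17 were called at 24 h against 0 h in 0 to 9 of these 9 fits, LINC02904 in 0. The 27 members under 1 CPM had a median standard error of 0.32 on the log2 scale.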
